A study of Mus musculus with 12 samples.

Results

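The immunity-related GTPases (IRG) and the guanylate-binding proteins (GBP) are GTP-binding proteins that mouse cells make in quantity after exposure to interferon. Their levels were followed here in hematopoietic cells of Ts1Cje mice, in hematopoietic cells of B6 mice, and in leukaemia lines with Trib1 on each of these backgrounds. Members were the probe sets whose single gene symbol in the platform annotation was Igtp, Tgtp1, Irgm1, Irgm2, Iigp1, Ifi47, Gbp2, Gbp3, Gbp6 or Gbp7. Of these 10 names, 9 had such a probe set, giving 12 probe sets for 9 genes, out of 17097 genes with a single-symbol probe set. Gbp6 was not analysed here.

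RNA was profiled on 12 arrays in 4 groups of 3: Ts1Cje Trib1, B6 Trib1, Ts1Cje and B6. Ts1Cje is a mouse model of Down syndrome, trisomic for a stretch of chromosome 16 related to human chromosome 21 and lacking a short stretch at the end of chromosome 12, while B6 cells are labelled wild type. Both Trib1 groups carried wild-type Trib1, which encodes a pseudokinase that drives acute myeloid leukaemia in mice, and the design text calls them AML cell lines. All 4 groups were grown in IMDM with 10% serum and 5 ng/ml of interleukin 3, with no other treatment and so with no added interferon. The labels give neither the age of the animals, the way Trib1 was introduced, nor the number of mice or lines behind a group. Trib1 and the leukaemic state went together, so their parts in a difference between lines and cells without Trib1 cannot be told apart. Since separate mice or cultures are not stated, p-values measure the spread between arrays alone, and that spread may be technical.

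As background, interferon gamma binds a receptor built of IFNGR1 and IFNGR2, whose signal acts at promoter sites called GAS and induces IRF1. Type I interferons bind IFNAR1 and IFNAR2 and activate a complex that includes STAT2 and IRF9 and binds the interferon-stimulated response element (ISRE). Promoters of IRG and GBP genes are known for both kinds of site. In infected cells the IRG effectors and the GBPs load onto the vacuoles of intracellular parasites and bacteria and disrupt them, while the regulatory IRG proteins Irgm1, Irgm2 and Igtp (Irgm3) sit on the cell's own membranes and hold the effectors inactive. In hematopoiesis, Irgm1 is also known for protecting stem cells during interferon exposure.

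Promoter sequence was available for 8 of the member genes, in 9 windows of 300 bases that run from 250 bases before to 50 bases after an annotated start (RefSeq, GRCm38.p6). An ISRE was searched on both strands as a pair of GAAA blocks with any 2 bases between them, and a GAS as TTCNNNGAA, which reads the same on both strands; overlapping matches were each counted. An ISRE match was found in 7 of the 9 windows, against 3.443% of all 32851 promoter windows, and a GAS match in 4 of the 9, against 8.298%. These are matches of letters, not measured binding sites. The stretches that hold them are shown for the 7 member genes with an ISRE match. Each is given as the 110 bases before the start, 5′ to 3′ on the gene's own strand, with the matches in capitals. Igtp was read at chr11:58199446-58199555 (plus strand), Irgm2 at chr11:58214867-58214976 (plus), Irgm1 at chr11:48871421-48871530 (minus) and Tgtp1 at chr11:48992247-48992356 (minus). Gbp2 was read at chr3:142620553-142620662, Gbp3 at chr3:142559934-142560043 and Gbp7 at chr3:142530226-142530335, all on the plus strand.
Igtp: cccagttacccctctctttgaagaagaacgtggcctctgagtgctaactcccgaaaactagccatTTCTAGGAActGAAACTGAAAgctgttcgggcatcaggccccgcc
Irgm2: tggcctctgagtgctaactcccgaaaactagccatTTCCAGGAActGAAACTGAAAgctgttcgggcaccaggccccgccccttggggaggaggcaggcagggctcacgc
Tgtp1: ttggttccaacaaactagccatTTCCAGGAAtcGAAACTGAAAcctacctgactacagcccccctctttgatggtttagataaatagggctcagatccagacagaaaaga
Irgm1: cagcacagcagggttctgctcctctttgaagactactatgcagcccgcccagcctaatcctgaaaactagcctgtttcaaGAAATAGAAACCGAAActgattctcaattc
Gbp2: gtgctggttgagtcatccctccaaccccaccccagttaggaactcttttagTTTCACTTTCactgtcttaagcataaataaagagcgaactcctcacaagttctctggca
Gbp3: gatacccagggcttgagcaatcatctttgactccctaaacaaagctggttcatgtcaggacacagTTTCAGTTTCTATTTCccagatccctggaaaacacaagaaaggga
Gbp7: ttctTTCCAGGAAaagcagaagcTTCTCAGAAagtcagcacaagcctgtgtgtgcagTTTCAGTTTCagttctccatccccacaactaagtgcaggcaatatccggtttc

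Igtp, Irgm2 and Tgtp1 carried a GAS match followed after 2 bases by an ISRE match. Over the 60 bases that end with that ISRE match, Igtp and Irgm2 were identical at 58 bases, while Tgtp1 matched Irgm2 at 38 and Igtp at 36. Igtp and Irgm2 are neighbours on chromosome 11, where Irgm1, Tgtp1 and Ifi47 also lie. Irgm1 had a pair of overlapping ISRE matches, the first starting 30 bases before the start, and no GAS match in its window. In the GBP genes of chromosome 3 the ISRE match read on the opposite strand, as TTTC repeats in the line printed above. It began 59 bases before the start in Gbp2 and 53 in Gbp7, and Gbp3 had an overlapping pair that began 45 bases before it. Gbp7 also had a pair of GAS matches, which ended 44 and 25 bases away from its ISRE match. Ifi47 had no match to either motif in its window, and neither did a further Gbp3 window. Only 0.4536% of all promoter windows held both motifs, as the windows of Igtp, Irgm2, Tgtp1 and Gbp7 did.

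**Figure D1:**
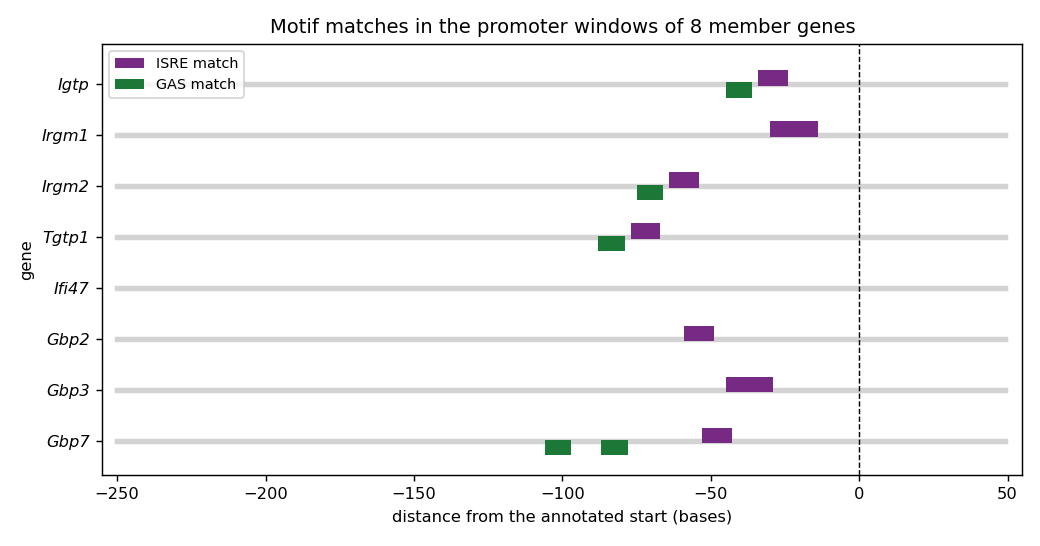
Positions of ISRE (purple) and GAS (green) matches in the main promoter window of each of 8 member genes; the horizontal axis is the distance in bases from the annotated start, which is the dashed line at 0. All matches lie within the 110 bases before the start, and Ifi47 has none.

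Intensities are the deposited values on a linear scale, and values close to each array's 40th percentile (22.0 to 23.5) are called dim. Every member probe set passed the filter on dim probe sets, 10 of them on all 12 arrays. The exceptions were both Iigp1 probe sets, which were dim in both Trib1 groups: the brighter one passed on the 6 arrays without Trib1 and the other on the 3 B6 arrays alone. Since Iigp1 was kept through the cells without Trib1, its differences from a Trib1 group are given without a test. Array medians lay between 30.5 and 32.0, and correlations between arrays of a group were at least 0.997. With 1 probe set per gene, the coefficient of variation of a member within a group had a median of 2.81% over 36 values and a maximum of 7.21%. The kept Trib1 probe set averaged 45.9 ± 3.57 in Ts1Cje Trib1, 46.2 ± 2.88 in B6 Trib1, 72.0 ± 3.50 in Ts1Cje and 76.2 ± 7.23 in B6 (SD, n = 3 each), and since it is not known to lie in the introduced sequence it does not check the Trib1 labels. The 4 pan-hematopoietic genes measured summed to between 8521 and 10779 on every array, and 4 stromal genes to between 65.5 and 76.5. Of the stromal genes, Dcn averaged 30.1 to 31.1 in the 4 groups and the 3 collagen genes were below the dim level. Marker genes of several lineages differed between the groups, and their values stand beside the results they move with. In bulk RNA, fewer cells of a type and less RNA per cell cannot be told apart.

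The 3 regulatory IRG genes shared a pattern: each was highest in Ts1Cje Trib1 and lowest in Ts1Cje. Igtp had 961, 992 and 1031 in Ts1Cje Trib1, 842, 887 and 857 in B6 Trib1, 393, 413 and 396 in Ts1Cje, and 643, 635 and 652 in B6. None of its 4 groups overlapped, and the highest group mean was 2.48 times the lowest. Irgm2 had 342, 345 and 347 in Ts1Cje Trib1, 287, 294 and 304 in B6 Trib1, 188, 175 and 180.4 in Ts1Cje, and 219, 241 and 231 in B6. Its groups kept the same order as those of Igtp, again with no overlap. Irgm1 had 425, 445 and 434 in Ts1Cje Trib1, 329, 312 and 316 in B6 Trib1, 248, 237 and 246 in Ts1Cje, and 317, 341 and 315 in B6. Its middle groups, B6 and B6 Trib1, overlapped and did not differ beyond their spread.

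Among the effector IRG genes, Tgtp1, whose product (Irgb6) coats and disrupts Toxoplasma vacuoles, had the widest range of the IRG genes, with 3.86 times between its highest and lowest group means. It had 1608, 1591 and 1636 in Ts1Cje Trib1, 970.4, 966 and 959 in B6 Trib1, 418, 412 and 422 in Ts1Cje, and 1025, 1035 and 1023 in B6. The Ts1Cje Trib1 arrays stood far above all others, the Ts1Cje arrays far below, and both B6 groups lay close together between them. Tgtp2, a near-identical gene close to Tgtp1 on chromosome 11, was not analysed here. Probe sequences were not examined, and the Tgtp1 signal may include Tgtp2. Ifi47 (IRG-47), which protects mice from Toxoplasma, had 1309.7, 1398 and 1441 in Ts1Cje Trib1, 1201, 1182 and 1171 in B6 Trib1, 602, 613 and 629 in Ts1Cje, and 832, 846 and 848 in B6. Its order was that of Igtp and Irgm2, with no overlap between any groups. Iigp1 (Irga6), a further vacuole-disrupting effector, went another way. Its brighter probe set had 20.0, 20.1 and 19.5 in Ts1Cje Trib1, 18.1, 18.0 and 20.4 in B6 Trib1, 27.6, 26.8 and 28.0 in Ts1Cje, and 54.1, 53.1 and 50.8 in B6. Only B6 stood clear of the dim range, and both Trib1 groups lay within it and overlapped.

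The GBP genes were highest in B6. Gbp2, which targets Toxoplasma vacuoles and bacterial membranes, had 256, 227 and 239.6 in Ts1Cje Trib1, 221, 211 and 239.5 in B6 Trib1, 351, 342 and 317 in Ts1Cje, and 500.0, 536 and 513 in B6. The Trib1 groups overlapped, and both lay below both groups without Trib1. This Gbp2 probe set is of a type that may be cross-hybridizing. A further Gbp2 probe set averaged 208 in Ts1Cje Trib1, 191 in B6 Trib1, 303 in Ts1Cje and 419 in B6, the same order of groups. Gbp3 had a range of 4.32 times between highest and lowest group means, the widest of the members as a ratio of intensities, while Tgtp1 had the widest span on the scale of log2(intensity + 15). Gbp3 had 46.7, 47.6 and 53.2 in Ts1Cje Trib1, 54.3, 53.5 and 58.8 in B6 Trib1, 156, 159 and 145 in Ts1Cje, and 206, 225 and 206 in B6. The Trib1 groups lay next to each other and far below the others. Gbp7 varied least, by 1.20 times, with 812, 791 and 835 in Ts1Cje Trib1, 727, 707 and 739 in B6 Trib1, 763, 782 and 800.1 in Ts1Cje, and 887, 838 and 882 in B6. Its Ts1Cje Trib1 and Ts1Cje arrays overlapped. Intensities of different probe sets are not set against each other here.

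**Figure D2:**
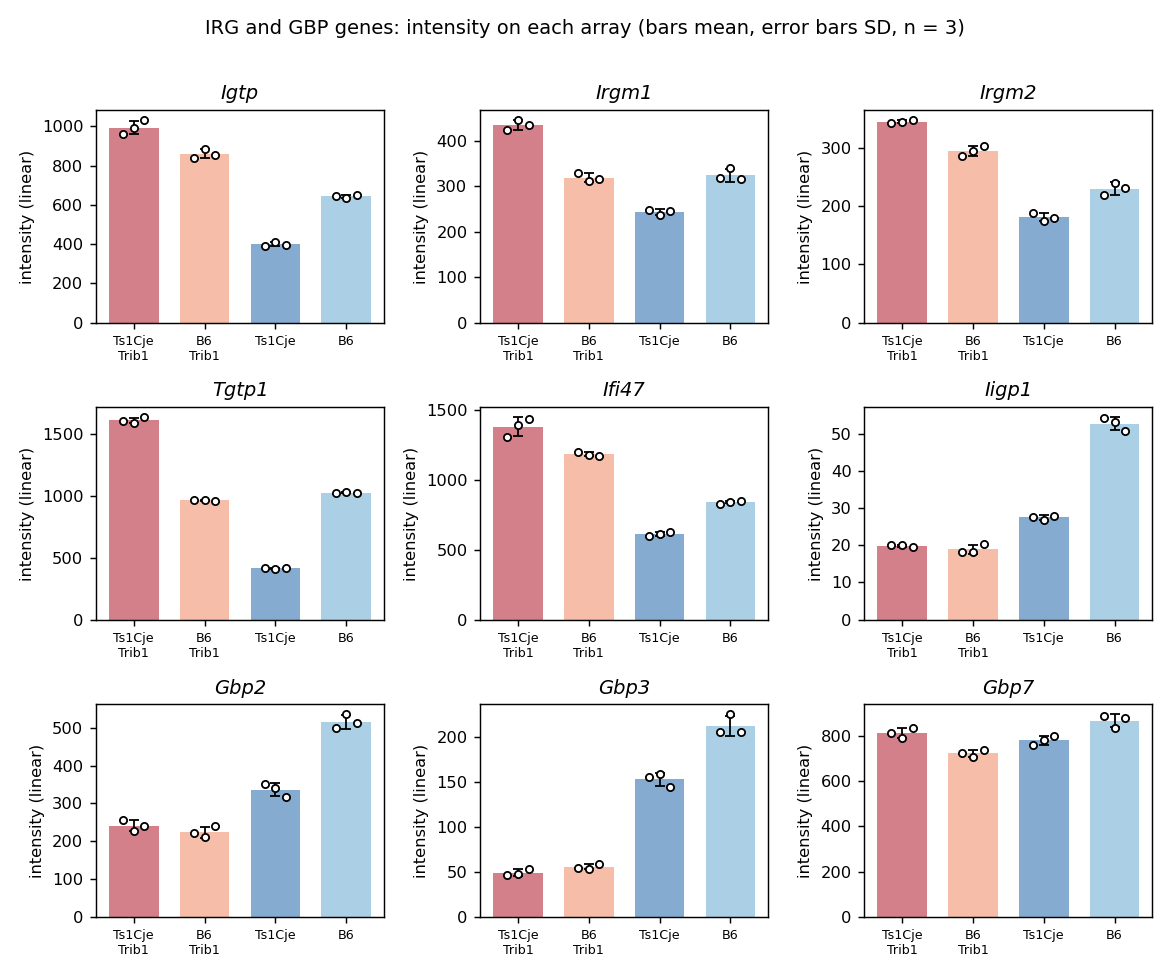
Intensity (linear scale, vertical axes from 0) of the 9 member genes on each array; bars are group means, error bars SD (n = 3), points single arrays, with groups from left to right Ts1Cje Trib1, B6 Trib1, Ts1Cje and B6. Igtp, Irgm1, Irgm2, Tgtp1 and Ifi47 are highest in Ts1Cje Trib1 and lowest in Ts1Cje, and Iigp1, Gbp2, Gbp3 and Gbp7 are highest in B6.

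Without Trib1, all 9 member genes were lower in Ts1Cje than in B6 cells, and all 9 fell by limma's test with Benjamini-Hochberg adjustment over 12560 genes. In this comparison 52.6% of all genes passed, made up of 23.3% of all genes that rose and 29.3% that fell. Differences are given on the scale of log2(intensity + 15), which understates the change of dim genes. Tgtp1 fell the most, by 1.27 (95% interval -1.34 to -1.20, adjusted p = 1.36e-11), to 417 ± 5.05 in Ts1Cje against 1028 ± 5.97 in B6. Iigp1 fell by 0.67 (adjusted p = 1.65e-08), Igtp by 0.66 (adjusted p = 2.28e-08) and Gbp2 by 0.60 (adjusted p = 1.92e-06). Ifi47 and Gbp3 each fell by 0.44, Irgm1 by 0.39 and Irgm2 by 0.32, with limma's adjusted p between 1.14e-06 and 3.49e-05. Gbp7 moved least, falling by 0.15 (95% interval -0.23 to -0.07, adjusted p = 0.0057). The median of the members was -0.44, against 0.01 for all genes. With 1 probe set per gene, no member's groups overlapped, as was so for 60.3% of all genes.

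Iigp1, Gbp2 and Gbp7 had a further probe set. Gbp2's averaged 303 ± 4.99 in Ts1Cje and 419 ± 8.78 in B6, lower in Ts1Cje by limma's test over all kept probe sets (adjusted p = 1.22e-05). Iigp1's averaged 19.1 in Ts1Cje and 48.2 in B6, and since it was kept through the B6 arrays alone these are given with no test. The further Gbp7 probe set averaged 344.5 ± 46.0 in Ts1Cje and 392 ± 43.7 in B6, with overlapping groups and an adjusted p of 0.219. When arrays were centred on the median of the kept genes, an alternative added after the data were seen, the Gbp7 difference was -0.05 and did not pass (adjusted p = 0.381). That centring also turned the balance of all genes to 5186 higher and 2338 lower, against 2925 higher and 3677 lower as deposited, and moved the median of all genes to 0.10 from 0.01. The other 8 members were lower and passed under each alternative that tested them.

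With Trib1, the genotype difference ran the other way for most members. In Ts1Cje Trib1 against B6 Trib1, 6 of the 9 rose, none fell and 3 did not pass, among them Iigp1, which was dim in both groups, in a comparison where 21.5% of all genes passed, made up of 11.9% of all genes that rose and 9.63% that fell. The 3 regulators all rose: Irgm1 by 0.43 (95% interval 0.34 to 0.52, adjusted p = 5.28e-06), Irgm2 by 0.22 (adjusted p = 0.00222) and Igtp by 0.20 (adjusted p = 0.00194). Tgtp1 rose by 0.73 (95% interval 0.66 to 0.80, adjusted p = 1.98e-09), to 1612 ± 22.8 in Ts1Cje Trib1 against 965 ± 5.61 in B6 Trib1. Ifi47 rose by 0.22 (adjusted p = 0.00123) and Gbp7 by 0.16 (adjusted p = 0.00824). Iigp1 had a value of 0.04 between these dim groups. Gbp2 differed by 0.10 (95% interval -0.02 to 0.22, adjusted p = 0.252). Gbp3 was the only member with a negative value, -0.14 (95% interval -0.25 to -0.02, adjusted p = 0.0879), and it passed without Ts1Cje Trib1 replicate 3, at -0.18 (adjusted p = 0.0331). The median of the 8 members measured on all arrays was 0.21, against 0.00 for all genes. Groups did not overlap for 7 of the 9, against 36.4% of all genes. For Gbp7 the further probe set did not pass (adjusted p = 0.195), and under the centring on kept genes its difference was 0.15 (adjusted p = 0.0666).

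**Figure D3:**
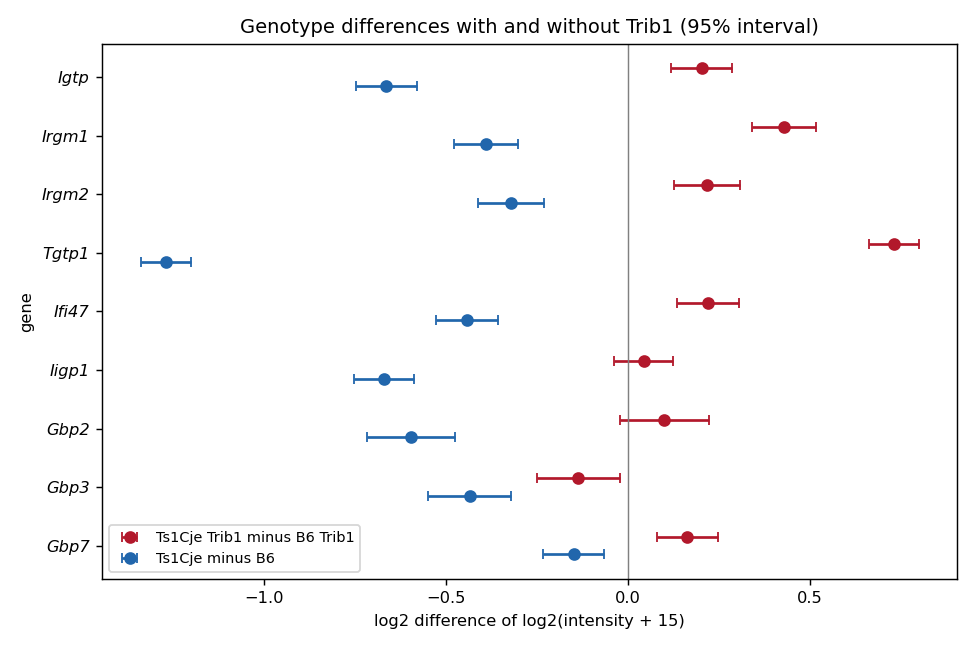
Genotype differences of the 9 member genes on the scale of log2(intensity + 15), horizontal axis, with 95% intervals from limma; red is Ts1Cje Trib1 minus B6 Trib1 and blue is Ts1Cje minus B6. All blue points lie left of 0, from -1.27 for Tgtp1 to -0.15 for Gbp7, and the red points lie between -0.14 for Gbp3 and 0.73 for Tgtp1.

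The interaction subtracts the genotype difference without Trib1 from the one with it. It was positive and passed for the 8 members measured on all 12 arrays, in a fit where 48.6% of all genes passed, made up of 28.4% of all genes with a positive and 20.2% with a negative value. It was 2.00 for Tgtp1 (adjusted p = 3.72e-12), 0.87 for Igtp, 0.82 for Irgm1, 0.70 for Gbp2, 0.66 for Ifi47 and 0.54 for Irgm2, with adjusted p from limma no higher than 1.33e-05. Gbp7 (0.31, adjusted p = 0.000442) and Gbp3 (0.30, adjusted p = 0.00558) had the smallest values. In limma's fit over all kept probe sets, the further Gbp7 probe set had 0.43 and did not pass (adjusted p = 0.0537). It passed in neither genotype comparison. The further Gbp2 probe set had 0.56 and passed (adjusted p = 4.68e-05). Iigp1 had a value of 0.71, but with both Trib1 groups in the dim range this restates its difference without Trib1. Igtp, Irgm1, Irgm2, Tgtp1, Ifi47 and Gbp7 passed in both genotype comparisons in opposite directions, while for Gbp2 and Gbp3 only the comparison without Trib1 passed. Under the centring on kept genes, where the median of all genes moved to -0.10 against 0.01, 2215 interactions were positive and 4041 negative, against 3568 and 2541 as deposited. The Gbp3 interaction was then 0.19 and did not pass (adjusted p = 0.0737), and the other 7 members measured on all arrays remained positive and passed.

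Markers of other cell types moved with these genotype differences. Without Trib1, all 4 B-cell markers tested fell in Ts1Cje, with summed intensities of 1349 to 1494 in Ts1Cje and 3545 to 3774 in B6, and 5 of 7 T and NK-cell markers fell and 1 rose, with sums of 1185 to 1239 in Ts1Cje and 1403 to 1495 in B6. The 4 mast-cell and basophil markers rose, with sums of 3809 to 4088 in Ts1Cje and 2105 to 2163 in B6. All 3 progenitor markers fell, with sums of 1339 to 1513 in Ts1Cje and 2176 to 2249 in B6. The 5 neutrophil markers rose, with sums of 22889 to 23523 in Ts1Cje against 14520.1 to 14809 in B6, and so did 5 of 6 monocyte and macrophage markers, with sums of 9718 to 9961 in Ts1Cje against 7001 to 7241 in B6. With Trib1, most neutrophil, monocyte and macrophage markers ran the other way. All 5 neutrophil markers fell, with sums of 6073 to 6238 in Ts1Cje Trib1 against 11563 to 11863 in B6 Trib1. Of 6 monocyte and macrophage markers 5 fell and 1 rose, with sums of 3648 to 3749 against 6273 to 6496. Of the 4 mast-cell and basophil markers, 2 rose, 1 fell and 1 did not pass. Their sums were 19005 to 19599 in Ts1Cje Trib1 and 16267 to 16537 in B6 Trib1. Of the 3 progenitor markers, 1 fell and 2 did not pass. T and NK-cell markers summed to 2719 to 2799 in Ts1Cje Trib1 and 2124 to 2128 in B6 Trib1, and 1 of the 7 rose. That sum is mostly Gzma (1626 in Ts1Cje Trib1 and 1039 in B6 Trib1) and Nkg7 (945 in Ts1Cje Trib1 and 893 in B6 Trib1), both cytotoxic granule genes, while Cd3d, Cd3e, Cd3g, Cd8a and Klrd1 lay between 20.3 and 59.3 in both lines. B-cell markers were low in both lines, with sums of 119 to 137 in Ts1Cje Trib1 and 114 to 136 in B6 Trib1. The part of these markers in the member differences was not tested.

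Between lines and cells without Trib1, members moved in both directions. In Ts1Cje Trib1 against Ts1Cje, 5 of the 8 members measured on all arrays rose, 2 fell and 1 did not pass, in a comparison where 60.8% of all genes passed, made up of 34.1% of all genes that rose and 26.8% that fell. Tgtp1 rose by 1.91 (adjusted p = 6.06e-15), Igtp by 1.28 (adjusted p = 2.7e-12), Ifi47 by 1.15 (adjusted p = 1.08e-11), Irgm2 by 0.88 (adjusted p = 3.98e-10) and Irgm1 by 0.80 (adjusted p = 8.21e-10). These are the same genes that were highest in Ts1Cje Trib1. Gbp3 fell by 1.39 (adjusted p = 3.26e-11) and Gbp2 by 0.46 (adjusted p = 7.84e-06). Iigp1 had a value of -0.28, against a dim level in the line. Gbp7 differed by 0.05 (95% interval -0.03 to 0.14, adjusted p = 0.242). The groups did not overlap for the other 7 of these 8 members, against 64.3% of all genes.

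In B6 Trib1 against B6, 3 of the 8 rose, 4 fell and 1 did not pass, with 65.2% of all genes passing, made up of 34.1% of all genes that rose and 31.1% that fell. Ifi47 rose by 0.49 (adjusted p = 1.64e-07), Igtp by 0.41 (adjusted p = 7.09e-07) and Irgm2 by 0.34 (adjusted p = 1.17e-05). Gbp3 fell by 1.69 (adjusted p = 7.93e-12), Gbp2 by 1.15 (adjusted p = 7.66e-10) and Gbp7 by 0.26 (adjusted p = 6.52e-05). Iigp1 was again at a dim level in the line, and its value is given below. Irgm1 differed by -0.02 (95% interval -0.11 to 0.07, adjusted p = 0.642). Tgtp1 fell by 0.09 (adjusted p = 0.0245), a call that was lost when any of 5 arrays was left out, under quantile normalization (-0.06, adjusted p = 0.104) and under the centring on kept genes, where it was 0.02 (adjusted p = 0.69). Irgm1 was the only member whose groups overlapped, and 72.6% of all genes had groups without overlap. That centring gave 6427 higher and 2675 lower genes, against 4283 and 3907 as deposited. This comparison shares the B6 arrays with Ts1Cje against B6, and the one before it shares the Ts1Cje arrays. With an offset of 1 in place of 15, the dim gene Iigp1 differed by -1.44 between B6 Trib1 and B6 and by -0.45 between Ts1Cje Trib1 and Ts1Cje. In both backgrounds the 4 B-cell markers fell and the 4 mast-cell and basophil markers rose, the mast-cell and basophil markers with sums of 19005 to 19599 in Ts1Cje Trib1 and 16267 to 16537 in B6 Trib1, against 3809 to 4088 in Ts1Cje and 2105 to 2163 in B6. All 5 neutrophil and all 6 monocyte and macrophage markers fell in Ts1Cje Trib1 against Ts1Cje, and in B6 Trib1 against B6 4 and 3 of them fell and 1 and 3 rose, on the sums given above. All 3 progenitor markers rose in Ts1Cje Trib1 against Ts1Cje and 2 of 3 in B6 Trib1 against B6, with sums of 2282 to 2758 in Ts1Cje Trib1 and 2540.1 to 2723 in B6 Trib1, against 1339 to 1513 in Ts1Cje and 2176 to 2249 in B6. Their part in the member differences was not tested.

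**Figure D4:**
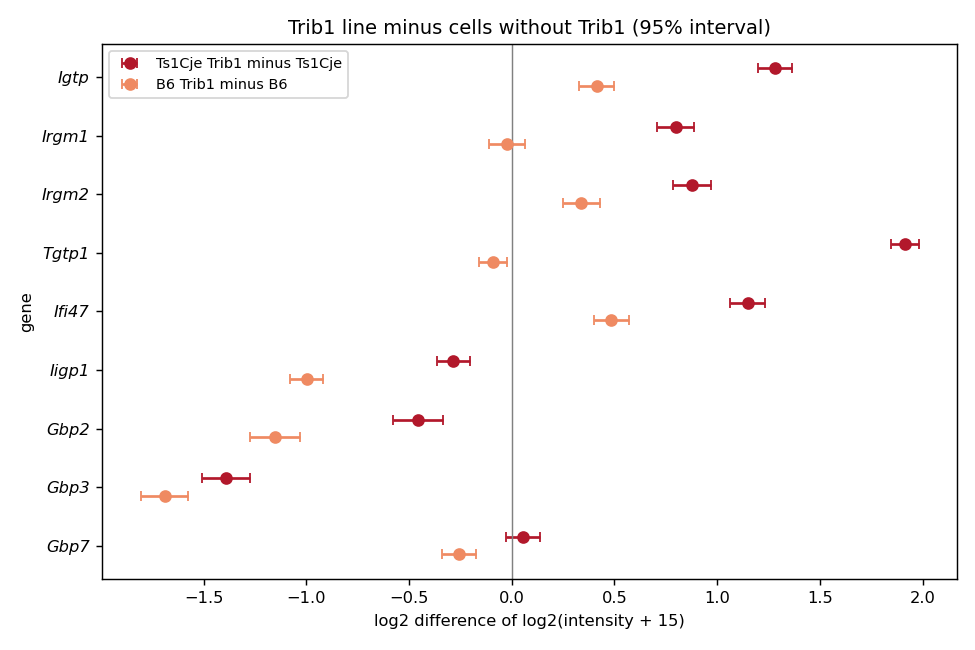
Differences between Trib1 lines and cells without Trib1 for the 9 member genes, on the scale of log2(intensity + 15), with 95% intervals; red is Ts1Cje Trib1 minus Ts1Cje and orange is B6 Trib1 minus B6. Gbp3, Gbp2 and Iigp1 (dim in both lines) lie left of 0 in both backgrounds, and Igtp, Irgm2 and Ifi47 lie right of 0 in both.

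Across the 12 arrays the members formed 2 sets, described after their values were seen and therefore not tested. Igtp, Irgm1, Irgm2, Tgtp1 and Ifi47, all on chromosome 11, correlated with one another at 0.892 to 0.990 over their 10 pairs. Iigp1, Gbp2, Gbp3 and Gbp7 correlated at 0.572 to 0.979 over 6 pairs. Iigp1 was dim in both Trib1 groups and was kept through the cells without Trib1, so its place here follows from that. Leaving it aside, Gbp2, Gbp3 and Gbp7 correlated at 0.572 to 0.945. Between the sets the 20 correlations ran from -0.836 (Ifi47 and Gbp3) to 0.232 (Tgtp1 and Gbp7). The arrays fall into 4 groups, and these correlations mostly reflect the group means. The first set held all 3 genes with the close GAS and ISRE pair, and also Ifi47, whose window held neither.

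The genes whose levels were most like the mean of the 9 members were found by Pearson correlation over the 12 arrays, among 3850 genes whose group means spanned at least 0.5 on the log2 scale. They were Gimap8 (0.987), Abcg2 (0.972), Bcat1 (0.963), Dctd (0.960), Zc3h7b (0.959), Arxes2 (0.957), Tasor2 (0.952) and Stau2 (0.950). Gimap8, a GTPase of immune cells, averaged 388 in Ts1Cje Trib1, 258 in B6 Trib1, 203 in Ts1Cje and 457 in B6. Abcg2, a drug efflux transporter, averaged 310.1 in Ts1Cje Trib1, 247 in B6 Trib1, 166 in Ts1Cje and 347 in B6. Both were lowest in Ts1Cje, as were 5 of the 9 members. Both were highest in B6, however, while those 5 members were highest in Ts1Cje Trib1. The mean joins both sets described above, and its order of groups was that of no single member. It also includes Iigp1, which was dim in both Trib1 groups.

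Of 20 further IRG and GBP genes listed, 7 had a single-symbol probe set and 4 passed the filter. Among them, 2 fell and 2 did not pass in Ts1Cje against B6, while 1 rose and 3 did not pass in Ts1Cje Trib1 against B6 Trib1. Gbp10, which lies beside Gbp6 on chromosome 5, averaged 159 ± 7.11 in Ts1Cje Trib1, 97.4 ± 7.08 in B6 Trib1, 71.5 ± 1.45 in Ts1Cje and 107 ± 1.42 in B6. It fell by 0.49 without Trib1 (adjusted p = 2.07e-06) and rose by 0.63 with it (adjusted p = 4.62e-07), the pattern of Tgtp1. Gbp8 averaged 93.9 ± 3.55 in Ts1Cje Trib1, 77.9 ± 11.4 in B6 Trib1, 78.2 ± 6.49 in Ts1Cje and 140.3 ± 16.7 in B6. It fell by 0.73 without Trib1 (adjusted p = 1.91e-05) and differed by 0.24 with it (adjusted p = 0.0825). Gbp4 (25.8 to 28.7 in group means) and Irgq passed in neither genotype comparison.

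Group means of the ligand genes lay below the dim level. Ifng averaged 13.5, 13.7 and 14.0 in Ts1Cje Trib1, B6 Trib1 and Ts1Cje and 21.5 in B6, and Ifnb1 lay between 16.1 and 19.3. Neither passed the filter, so neither was tested. The receptor genes showed no single pattern with the members. Ifngr2, Ifnar1 and Ifnar2 lie on chromosome 16 in the segment that is trisomic in Ts1Cje, and without Trib1 all 3 rose: Ifngr2 by 0.72 (adjusted p = 6.77e-07), Ifnar2 by 0.71 (adjusted p = 5.54e-09) and Ifnar1 by 0.64 (adjusted p = 4.26e-07). These are the cells in which all 9 members fell. Ifngr2 averaged 921 ± 52.1 in Ts1Cje against 553 ± 44.1 in B6, and 275 ± 16.4 in Ts1Cje Trib1 against 263 ± 2.82 in B6 Trib1. With Trib1, Ifnar1 rose by 0.24 (adjusted p = 0.00382) and Ifngr2 differed by 0.06 (adjusted p = 0.538). Ifnar2 rose by 0.32 (adjusted p = 2.31e-05), but the mean of its probe sets gave -0.06 (adjusted p = 0.368). Ifngr1, on chromosome 10, differed by 0.05 without Trib1 (adjusted p = 0.415) and fell by 0.28 with it (adjusted p = 0.0014).

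Among the regulators downstream, Irf1, the interferon gamma-induced activator of GBP and IRG promoters, averaged 299.8 ± 10.4 in Ts1Cje Trib1, 346 ± 26.2 in B6 Trib1, 553 ± 9.78 in Ts1Cje and 656 ± 28.1 in B6. It fell in Ts1Cje in both genotype comparisons, by 0.24 without Trib1 (adjusted p = 0.00188) and by 0.20 with it (adjusted p = 0.0156), whereas most IRG genes rose in the second. The first call was lost under the centring on kept genes (-0.14, adjusted p = 0.0719), and the second without any of 3 arrays, B6 Trib1 replicate 1 and Ts1Cje Trib1 replicates 1 and 2. Irf8, a myeloid factor that also acts at ISRE sites, averaged 32.6 ± 1.80 in Ts1Cje Trib1, 91.9 ± 10.4 in B6 Trib1, 521 ± 29.9 in Ts1Cje and 750.2 ± 42.7 in B6. It fell by 0.51 without Trib1 (adjusted p = 4.21e-05) and by 1.16 with it (adjusted p = 4.78e-08). Irf9, the DNA-binding part of the type I interferon complex, averaged 296 ± 10.3 in Ts1Cje Trib1, 222 ± 8.98 in B6 Trib1, 196 ± 26.2 in Ts1Cje and 225 ± 3.00 in B6. With Trib1 it rose by 0.39 (adjusted p = 0.000954). Without Trib1 it fell by 0.20 (adjusted p = 0.0288), a call that 8 of 23 alternatives lost. Irf7, the amplifier of type I interferon, fell by 0.22 without Trib1 (adjusted p = 0.00753), which quantile normalization and the centring on kept genes lost, and rose by 0.30 with it (adjusted p = 0.0025). Irf2 fell by 0.22 without Trib1 (adjusted p = 0.017), which was lost under the centring on kept genes and without B6 replicate 2 or Ts1Cje replicate 3, and differed by -0.05 with it (adjusted p = 0.66). Irf3 differed by -0.04 without it (adjusted p = 0.412) and rose by 0.19 with it (adjusted p = 0.00524), and Stat2 passed in neither genotype comparison. Feedback genes also differed. Usp18, which restrains type I interferon signalling, averaged 945 ± 22.1 in Ts1Cje Trib1 and 531 ± 20.7 in B6 Trib1. Without Trib1 it averaged 184 ± 19.0 in Ts1Cje and 145 ± 3.81 in B6. Usp18 rose in both genotype comparisons, by 0.81 with Trib1 (adjusted p = 2.85e-07) and by 0.32 without it (adjusted p = 0.000522). The members fell in the comparison without Trib1. Socs1, the inhibitor of JAK signalling, rose by 0.39 with Trib1 (adjusted p = 0.000903). Socs3, a further feedback inhibitor, fell by 0.32 with Trib1 (adjusted p = 0.000328).

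Over the whole lists, interferon gamma signalling had 1 gene up, 3 down and 7 not passing of 11 in Ts1Cje against B6, and 2 up, 4 down and 5 not passing in Ts1Cje Trib1 against B6 Trib1. Type I interferon signalling had 4 up, 2 down and 2 not passing of 8 without Trib1, and 6 up, 0 down and 2 not passing with it. In neither list did the members' pattern of a fall without Trib1 and a rise with it hold as a whole.

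**Figure D5:**
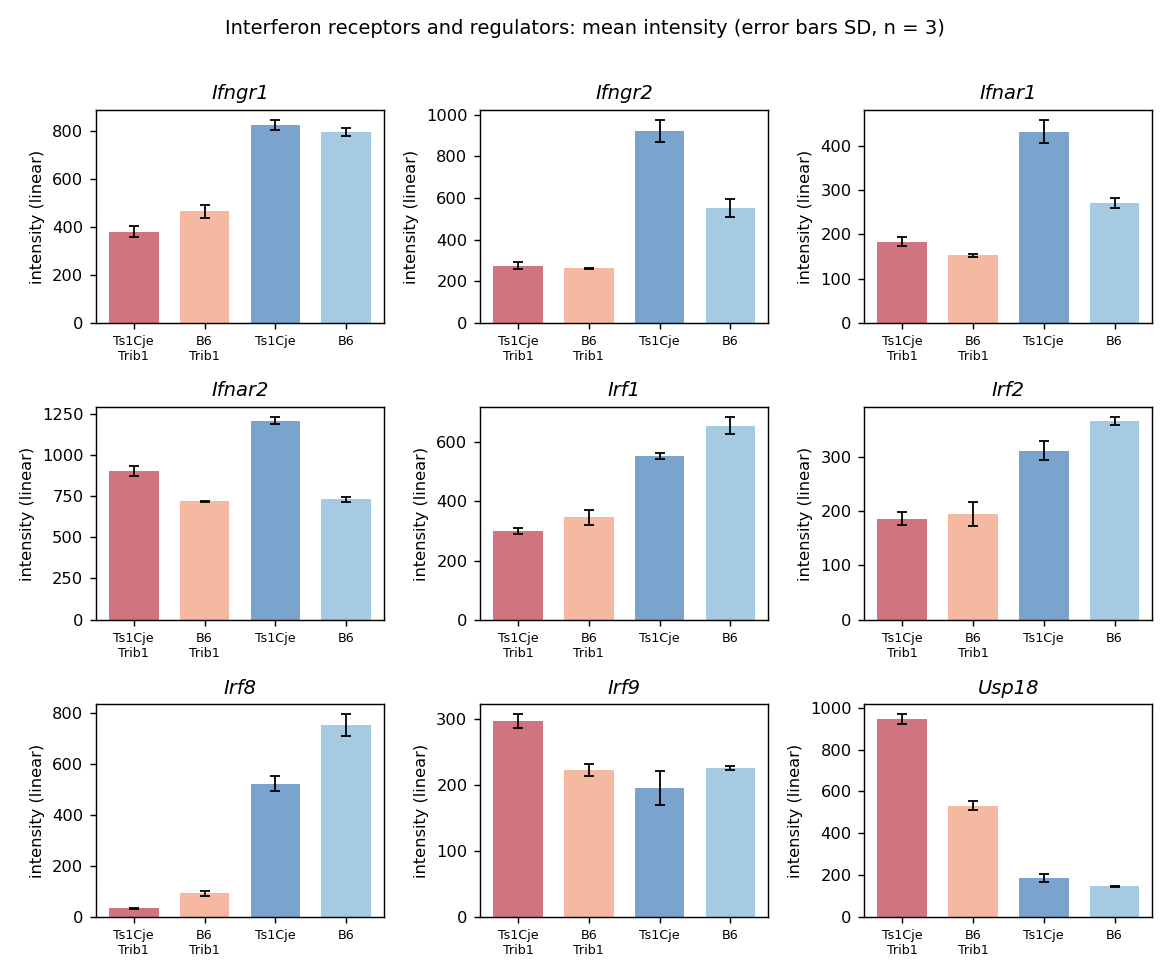
Mean intensity (linear scale, vertical axes from 0) of 4 interferon receptor genes and 5 regulators; error bars are SD (n = 3), with groups from left to right Ts1Cje Trib1, B6 Trib1, Ts1Cje and B6. Ifngr2, Ifnar1 and Ifnar2 are highest in Ts1Cje cells, Irf1, Irf2 and Irf8 are lower in both Trib1 groups, and Usp18 is highest in Ts1Cje Trib1 (945).

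Other interferon-induced genes were also described. Of 21 tested, 1 rose, 9 fell and 11 did not pass in Ts1Cje against B6 (median -0.11), while 8 rose, 2 fell and 11 did not pass in Ts1Cje Trib1 against B6 Trib1 (median 0.10). Their interaction passed in the positive direction for 12 and in the negative for 0, with a median of 0.22 against 0.68 for the 8 members measured on all arrays. Nlrc5, the activator of MHC class I genes, averaged 154 ± 7.73 in Ts1Cje Trib1, 105 ± 4.70 in B6 Trib1, 244 ± 4.81 in Ts1Cje and 420.0 ± 10.7 in B6. It fell by 0.75 without Trib1 (adjusted p = 2.24e-08) and rose by 0.50 with it (adjusted p = 2.13e-06). Ciita, the activator of MHC class II genes, fell by 0.81 without Trib1 (adjusted p = 5.42e-06) and differed by -0.23 with it (adjusted p = 0.084). Rtp4 fell by 0.25 without Trib1 (adjusted p = 0.0104), a call lost without B6 replicate 3 or Ts1Cje replicate 3, and rose by 0.70 with it (adjusted p = 1.12e-05). Xaf1 fell by 0.12 without Trib1 (adjusted p = 0.0291), a call that 6 of 23 alternatives lost. Xaf1 rose by 0.60 with Trib1 (adjusted p = 2.78e-07) and Rsad2, the antiviral protein viperin, by 0.55 (adjusted p = 0.000116). Zbp1, a sensor of nucleic acids, rose in both comparisons, by 0.20 without Trib1 (adjusted p = 0.00195) and by 0.25 with it (adjusted p = 0.00122), and the first was lost with the mean of its probe sets (0.08, adjusted p = 0.129).

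IRG and GBP proteins are loaded onto vacuoles with the help of the ATG conjugation machinery, and GBPs promote inflammasome activity. Of 15 autophagy, ubiquitin and lipid-transfer partners tested, 8 rose, 2 fell and 5 did not pass in Ts1Cje against B6, led by Gabarap (0.37, adjusted p = 1.64e-06) and Atg7 (0.51, adjusted p = 9.42e-06). In Ts1Cje Trib1 against B6 Trib1, 1 rose and 14 did not pass. The riser was Gabarapl2 (0.11, adjusted p = 0.0279), a call that 9 of 23 alternatives lost. Of 6 inflammasome genes, 2 rose, 1 fell and 3 did not pass without Trib1, and 2 rose, 2 fell and 2 did not pass with it. Casp1, the inflammasome protease, averaged 927 ± 14.6 in Ts1Cje Trib1, 518 ± 10.8 in B6 Trib1, 495 ± 39.6 in Ts1Cje and 467.5 ± 4.94 in B6. It rose by 0.82 with Trib1 (adjusted p = 4.83e-08) and differed by 0.08 without it (adjusted p = 0.198). Casp4, the sensor of cytosolic lipopolysaccharide, rose by 0.46 with Trib1 (adjusted p = 3.72e-06), while the cytokine gene Il18 fell by 0.69 (adjusted p = 4.41e-07). The adaptor gene Pycard rose by 0.51 without Trib1 (adjusted p = 2.66e-07) and fell by 0.39 with it (adjusted p = 7.8e-06), the reverse of the members.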

How the data were processed

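Total RNA of 12 cell samples was hybridised by the authors to Affymetrix perfect-match arrays, 1 array per sample. The deposited values are linear intensities of 45141 probe sets, made with MAS5 per the submitters' processing notes; how MAS5 was run on an array without mismatch probes, and its scaling target, are not given in the sources used here. Precision is limited by the number of arrays. The platform annotation gave a single gene symbol for 28898 probe sets, several for 551 and none for 15588, and 104 control probe sets were left out.

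A probe set was kept when it exceeded its array's 40th percentile on at least 3 arrays, and each gene was represented by its brightest kept probe set on average, giving 12560 genes. Values were transformed as log2(intensity + 15). Group means were estimated over the 12 arrays in limma 3.58.1 (R 4.3.3), with two-sided tests, Benjamini-Hochberg adjustment over the 12560 genes of each contrast, and a call at an adjusted p under 0.05. Further probe sets of a member were taken from a fit over all 28543 kept probe sets. The procedure was tested on simulated data. No pairing by replicate number was seen, which 3 arrays per group cannot exclude, and the numbers were not used in the main fit. Members and gene lists came from textbook knowledge and were chosen with earlier results of these data known. Named genes were the members, up to 4 genes of each list with the smallest adjusted p in each genotype comparison, the receptors, ligands and transcription factors of the signalling lists, and the 8 genes most like the members; a few others were named after their values were seen. Promoter sequences and gene order came from RefSeq (GRCm38), for which 8 of the 10 member names matched.

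Alternatives covered quantile normalization, centring on medians, an offset of 1, no filter, a filter at the 60th percentile, averaging the probe sets of a gene, leaving out cross-hybridizing probe sets, a variance trend with robust moderation, the replicate number as a block, only the groups compared, and each array left out in turn. Centring on the median of the kept genes was added after the data were seen.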

Additional observations from a re-analysis of the deposited data

Results flagged for a closer look

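The effect of genotype differed between cells with and without Trib1 for the 8 member genes measured on all 12 arrays, by limma's interaction term. In log2 units, with the genotype difference without Trib1 subtracted from the one with it, the interaction was 2.00 for Tgtp1, 0.87 for Igtp, 0.82 for Irgm1, 0.70 for Gbp2, 0.66 for Ifi47, 0.54 for Irgm2, 0.31 for Gbp7 and 0.30 for Gbp3, the last of which did not pass under centring on kept genes (0.19, adjusted p = 0.0737). For Gbp7 the further probe set had 0.43 and did not pass (adjusted p = 0.0537 by limma over all kept probe sets). The value of 0.71 for Iigp1 restates its difference without Trib1, since both Trib1 groups were dim. The same term is given for 7 other genes named in the report. They were listed because both genotype differences passed in opposite directions and the interaction passed, so its passing was fixed by that choice. Only its size is described. The interaction was 1.25 for Nlrc5, 1.12 for Gbp10, 0.96 for Rtp4, 0.72 for Xaf1, 0.59 for Irf9 and 0.53 for Irf7. For Pycard it was negative, at -0.90. For Xaf1 and Irf9 the fall without Trib1 was lost under 6 and 8 of 23 alternatives, for Irf7 under quantile normalization and centring on kept genes, and for Rtp4 without B6 replicate 3 or Ts1Cje replicate 3. Over all genes tested, 48.6% of interactions passed.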

How the results depend on the processing

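Each comparison was recomputed under 23 alternatives (the restriction to the groups compared does not apply to the interaction). The counts of genes and of members that passed stayed within 1.5 times their values as reported under every alternative run. When each array was left out in turn, genes passing ranged from 5554 to 7202 for Ts1Cje against B6. For Ts1Cje Trib1 against B6 Trib1 they ranged from 2059 to 2976. Members passing numbered 9 each time in the first and 6 or 7 in the second. These ranges include arrays of groups outside the comparison, which act mainly through the shared estimate of the spread. The 2976 came without Ts1Cje replicate 1, such an array. Leaving out an array outside the comparison, the replicate block, the variance trend with robust moderation and the restriction to compared groups left member differences unchanged. Under these settings only the adjusted p could move. Of 1021 recomputed member differences, 1007 kept their direction and their side of the threshold. Another 9 kept their direction but no longer passed, 1 came to pass and 4 changed sign, of which Tgtp1 also lost its call. The sign changed for Irgm1 in B6 Trib1 against B6, to 0.048 under quantile normalization and 0.088 under centring on kept genes, neither of which passed, and for Tgtp1 there, to 0.021 under that centring. Leaving out 1 array at a time, Irgm1 in that comparison ran from -0.045 without B6 Trib1 replicate 1 to 0.012 without B6 replicate 2, none passing. Tgtp1 in this comparison also lost its call without any of the 3 B6 arrays or B6 Trib1 replicates 2 and 3, at -0.09 to -0.08. Of 3255 recomputed differences of other named genes that had passed, 107 kept their direction but no longer passed. A further 2 changed sign and also lost their calls, both when probe sets of a gene were averaged. They were Ifnar2 in Ts1Cje Trib1 against B6 Trib1, at -0.057, and Zbp1 in Ts1Cje Trib1 against Ts1Cje, at -0.042. The causes were not tested. Same-numbered arrays had correlated deviations from -0.445 to 0.354, and 3 of 12 arrays resembled their own number best. With the replicate number as a block, 6352 genes passed in Ts1Cje against B6 and 2485 in Ts1Cje Trib1 against B6 Trib1. In B6 Trib1 against B6 8017 passed, in Ts1Cje Trib1 against Ts1Cje 7519 and in the interaction 5818. Members passing numbered 9, 6, 8, 8 and 9 in that order. Member counts in this section and the 1021 recomputed differences take in Iigp1. Its values against a Trib1 group and in the interaction are not read as tests. Signal near background limits Iigp1 in both Trib1 groups, and 3 arrays per group limit small differences.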
